A study of Mus musculus with 4 samples.

Results

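The genes described here lie around *Zfp57* and the mouse major histocompatibility complex (MHC) on chromosome 17 (GRCm38), between 35000 and 38500 kb. They were chosen by position and by having more than 8 bulk counts summed over the 4 libraries, which 84 of the 271 annotated genes of the interval had, out of 19995 such genes among 55602 in the whole table. The interval was placed around *Zfp57* with the allelic reads of these libraries known, so that the allelic values below are a description without a test. RNA-seq compared wild-type (WT) and *Zfp57*-/- JB1 cells, with 2 libraries per genotype. JB1 is a male hybrid embryonic stem cell (ESC) line from a JF1 mother and a C57BL/6 (B6) father, and the *Zfp57*-/- cells are 1 line derived from it. All 4 cultures were differentiated towards neural precursor cells (NPCs) in a defined medium with 1 µM cyclopamine, an inhibitor of Hedgehog signalling, from day 2 to day 10 and were harvested at day 12. The labels call the libraries biological duplicates without saying how the cultures were separated, and with 1 derived line the effect of the genotype and of that line cannot be told apart.

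ZFP57 is a KRAB zinc finger protein that binds methylated imprinting control regions and is known for keeping their methylation. The gene lies among the H2-M class I genes, with *H2-M5* on one side and *H2-M3* and *H2-M2* on the other. Class I heavy chains pair with B2m, the light chain, and show peptides at the cell surface to T cells, and are known to be low in ESCs and in neural cells. The mouse class I genes form the H2-K, H2-D, H2-Q, H2-T and H2-M groups, and many of them are near copies of each other. Between these groups lie the class III genes and runs of genes with household functions.

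The interval held 33131 and 56241 bulk counts in the WT replicates and 42355 and 44921 in the *Zfp57*-/- replicates, of 7663520 to 10337082 counts per library. Of the 84 genes, 66 are protein coding. In the labelled NPCs, the progenitor markers *Nes*, *Sox1*, *Pax6*, *Fabp7* and *Hes5* together had 598 and 661 CPM (counts scaled to 1000000 per library) in WT and 223 and 222 in *Zfp57*-/- libraries. The pluripotency markers *Pou5f1*, *Nanog*, *Tdgf1*, *Zfp42* and *Dppa5a* had 1.98 and 4.30 CPM in WT and 902 and 766 in *Zfp57*-/- libraries, so that the null libraries labelled NPCs carried pluripotency markers. As these are bulk libraries, a change in the number of cells of a type and a change in RNA per cell cannot be told apart. The endoderm markers *Foxa2*, *Sox17*, *Gata4* and *Gata6* had 206 CPM in WT replicate 1 and 462 in WT replicate 2, against 422 and 579 in the *Zfp57*-/- libraries. The neuronal markers *Tubb3*, *Dcx* and *Map2* had 1185 and 1467 CPM in WT and 101 and 84.7 in null replicates. How far these differences in cell makeup enter the values below was not tested.

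In the *Zfp57*-/- libraries, maternal (JF1) reads were missing at *Zfp57* itself and present at the informative genes on both sides of it. Reads were assigned to a parent where they covered a SNP between the strains, and a gene was taken as informative with at least 10 such reads in every library, which held for 39 of the 84 genes. Of the rest, 36 had fewer reads and 9 had none. *Zfp57* (37001163 to 37010635, plus strand) had 136 JF1 and 81 B6 reads in WT replicate 1 and 99 and 49 in WT replicate 2. It had 0 JF1 and 82 B6 reads in *Zfp57*-/- replicate 1 and 0 and 76 in replicate 2. The JF1 share was thus 0.627 and 0.669 in WT (95% Wilson intervals 0.561 to 0.688 and 0.590 to 0.740) and 0 in both null libraries, where 3 reads would make a share of 0.0366 and 0.0395. These intervals cover counting error only.

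In the mean over replicates, the B6 reads of *Zfp57* were not fewer in the null than in the WT libraries. The WT replicates differed, and after scaling to library size both null values lay between them. On the scale of log2 CPM with a prior count of 2, the JF1 reads differed by -5.92 and the B6 reads by 0.26 between *Zfp57*-/- and WT. With no JF1 reads in the null libraries, the JF1 value depends on the prior count. The bulk count was 392 and 249 in WT and 158 and 144 in *Zfp57*-/- replicates. The groups did not overlap, with 340.3 ± 165 normalized counts in WT and 149 ± 14.9 in null cells (SD, n = 2). *Zfp57* fell by 1.19 on the log2 scale (standard error 0.32, adjusted p = 0.0225 by edgeR's quasi-likelihood test over all 19995 genes), and without *Zfp57*-/- replicate 2 the adjusted p was 0.0719. The part of the gene that the knockout removes is not given in the sources used here, and the count covers all exons of the gene model.

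The nearest informative gene on the proximal side was *Znrd1as*, an antisense RNA gene that ends 35.5 kb before *Zfp57*, with a JF1 share of 0.707 and 0.633 in the null libraries. *Znrd1*, which encodes an RNA polymerase I subunit, had 0.400 and 0.549, and *Ppp1r11*, an inhibitory subunit of protein phosphatase 1, had 0.497 and 0.507. On the distal side, *Gabbr1*, a subunit of the GABA B receptor, starts 35.3 kb after *Zfp57* and had 0.602 and 0.464. These informative genes on both flanks therefore carried reads of both parents in the null libraries, on the distal side at *Gabbr1* alone. The run of informative genes without JF1 reads was 1 gene long. Closer in, the class I gene *H2-M5* ends 11.6 kb before *Zfp57*, and 2 of 9 and 2 of 10 of its allelic reads were JF1 in the null libraries. Past *Gabbr1*, some genes under the read minimum had few or no JF1 reads in the null replicates. *Ubd* had 0 JF1 and 4 B6 reads, and 0 and 10. *H2-M3* had 2 and 12, and 1 and 9, and *H2-M2* 0 and 3, and 0 and 2. Their only WT allelic read was 1 JF1 read of *H2-M3*, so that they could not be informative. The next informative genes lay outside the interval and were *Gm26917* and *Gm42418*. Both had a JF1 share near 1.00 in all 4 libraries, with at most 2 B6 reads in a library. Whether the reads at these genes tell the parents apart was not tested.

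Over the 10091 informative autosomal genes, 50 (0.495%) had a JF1 share of at most 0.1 in both null libraries. On chromosome 17 there were 13 of 475. Besides *Zfp57* these were *H2-K1* and 11 genes from *Scaf8* to *Tmem181a*, between 3114972 and 6308314 and so far from *Zfp57*. *H2-K1*, the class I gene of the H2-K group at 33996017 to 34000333, had a JF1 share of 0.0706 and 0.12 in WT already and 0.00412 and 0.0132 in the null libraries.

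**Figure D1:**
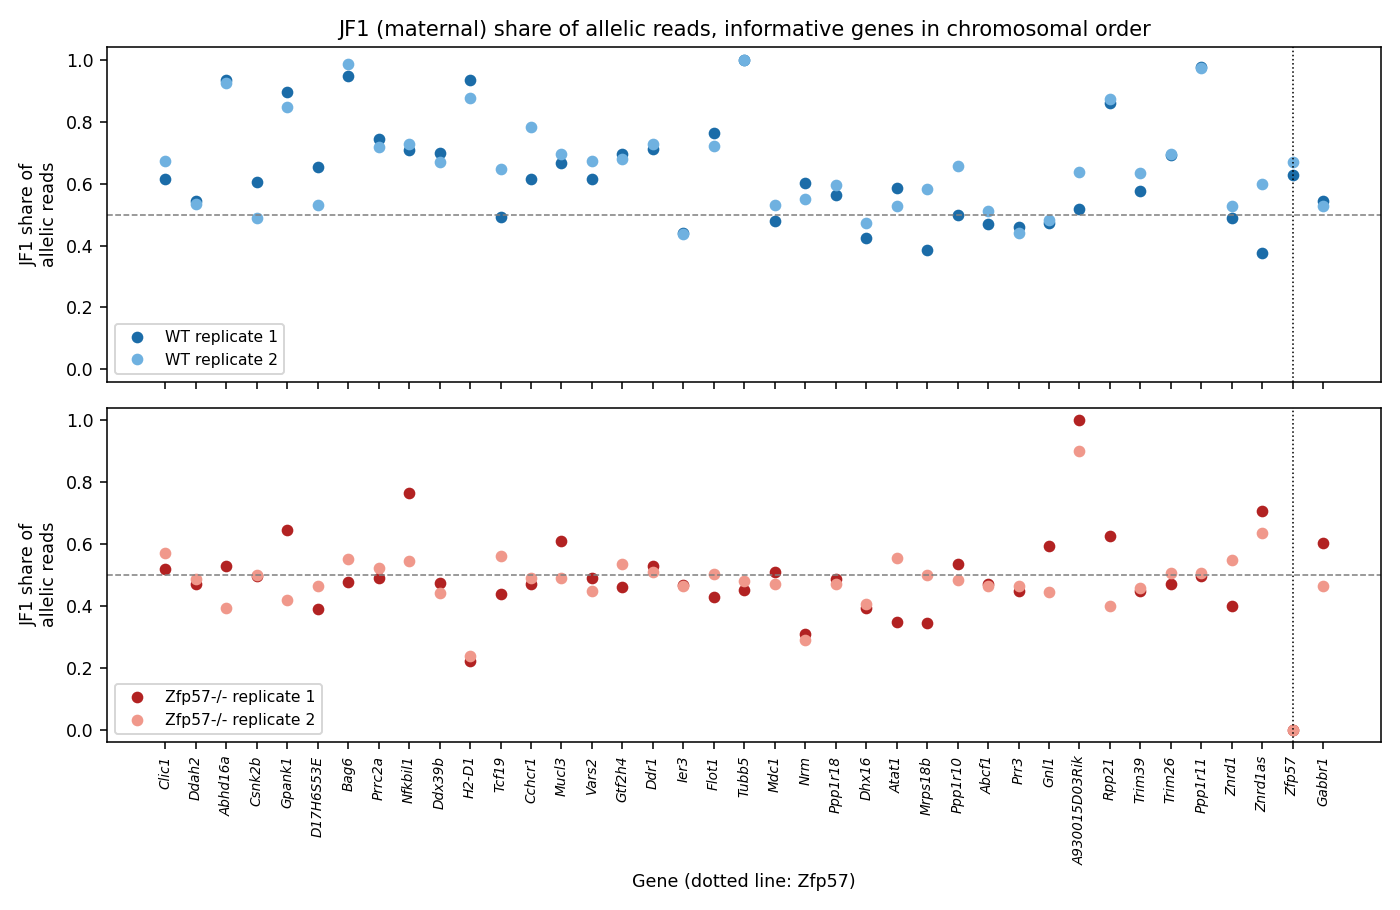
JF1 share of allelic reads (vertical axis, 0 to 1) for the 39 informative genes in chromosomal order, in the WT (top) and *Zfp57*-/- (bottom) replicates. Each point is a library, the dashed line marks equal reads and the dotted line *Zfp57*, the only gene at 0 in the null libraries. Several genes near 1 in WT lie near 0.5 in the null libraries.

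The larger departure from equal reads was in the WT libraries. The median JF1 share of the 39 genes was 0.614 and 0.656 in the WT replicates and 0.472 and 0.484 in the *Zfp57*-/- replicates, against medians of the replicate means of 0.499 and 0.489 over all informative autosomal genes. The mean share lay between 0.3 and 0.7 in 28 genes in WT and in 35 in null cells, above 0.7 in 11 and 1, and under 0.3 in 0 and 3. Of the 10091 informative autosomal genes, 9015 and 9384 lay between these limits, 813 and 348 above and 263 and 359 under them. Both WT replicates lay above both null replicates in 25 genes and below them in 3, where 29.4% and 19.5% of the informative autosomal genes did so.

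*Abhd16a*, *Bag6*, *Tubb5* and *Ppp1r11* had a JF1 share of at least 0.9 in both WT libraries and between 0.3 and 0.7 in both null libraries. These limits were chosen after the data were seen, and 294 informative autosomal genes (2.91%) met them. *Tubb5*, a beta-tubulin of dividing and neural cells, had 2928 JF1 and 4 B6 reads in WT replicate 1 and 5530 and 1 in WT replicate 2. In the *Zfp57*-/- replicates it had 1637 and 1997, and 1940 and 2100. *Tubb5* thus had a share of 0.999 and 1.00 in WT and 0.450 and 0.480 in null libraries, with almost no paternal read in the former and somewhat more B6 than JF1 reads in both of the latter.

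*Bag6*, which encodes a chaperone for membrane proteins, had 147 JF1 and 8 B6 reads and 207 and 3 in the WT replicates. In the null replicates *Bag6* had 87 and 95, and 100 and 82. *Ppp1r11* had 123 and 3, and 244 and 7, in WT and 85 and 86, and 113 and 110, in null replicates. The lipase gene *Abhd16a* had 70 and 5, and 151 and 12, in WT and 78 and 70, and 61 and 94, in null replicates. *Gpank1*, with WT shares of 0.895 and 0.848, and *Rpp21*, a subunit of ribonuclease P, with 0.860 and 0.872, lay just under the limit.

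Some genes next to them had about equal reads of both parents in the same WT libraries. *Tubb5* and *Mdc1*, a DNA damage response gene, start 3.21 kb apart, and the mean WT share was 0.999 for the former and 0.505 for the latter. *Ppp1r11* and *Znrd1* start 6.82 kb apart and had 0.974 and 0.508. *Gpank1* and *Csnk2b*, the regulatory subunit of casein kinase 2, start 598 bases apart and had 0.872 and 0.547. In the null libraries the mean shares of these 6 genes lay between 0.465 and 0.532. Other neighbours leaned to JF1 in WT as well, with 0.743 for *Flot1*, next to *Tubb5*, and 0.731 for *Prrc2a*, next to *Bag6*. Within the interval no adjacent informative genes both reached 0.9. On the proximal side, outside the interval, they did. *Wdr46*, *B3galt4* and *Rps18*, which follow each other, had shares of 0.944 and 0.980, 1 and 1, and 0.998 and 0.998 in the WT replicates and between 0.406 and 0.523 in the null replicates.

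For the 4 genes chosen above, the bulk counts did not pass the threshold. *Tubb5* had 13582 and 26407 bulk counts in WT and 16193 and 17535 in null libraries (log2 fold change -0.25, standard error 0.23, edgeR adjusted p = 0.457). The log2 fold changes of *Bag6*, *Ppp1r11* and *Abhd16a* were -0.22, -0.04 and 0.34, with edgeR adjusted p of 0.465, 0.930 and 0.389. Among the other genes with a mean WT share above 0.7, *H2-D1* rose and *Ddr1* and *Prrc2a* fell, as given below. The share of bulk counts that could be assigned to a parent was 21.6% and 20.9% in WT and 22.4% and 23.04% in null libraries for *Tubb5*, and 52.5%, 50.3%, 49.9% and 58.7% for *Ppp1r11* in the same order. It differed more for *Flot1*, at 38.4% and 49.9% against 63.8% and 59.4%. Over the 39 genes, the median log2 change was -0.24 for JF1 reads, 0.52 for B6 reads and 0.01 for bulk counts, against -0.02, 0.09 and 0.05 over all informative autosomal genes. Without WT replicate 2 the JF1 median was -0.066.

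**Figure D2:**
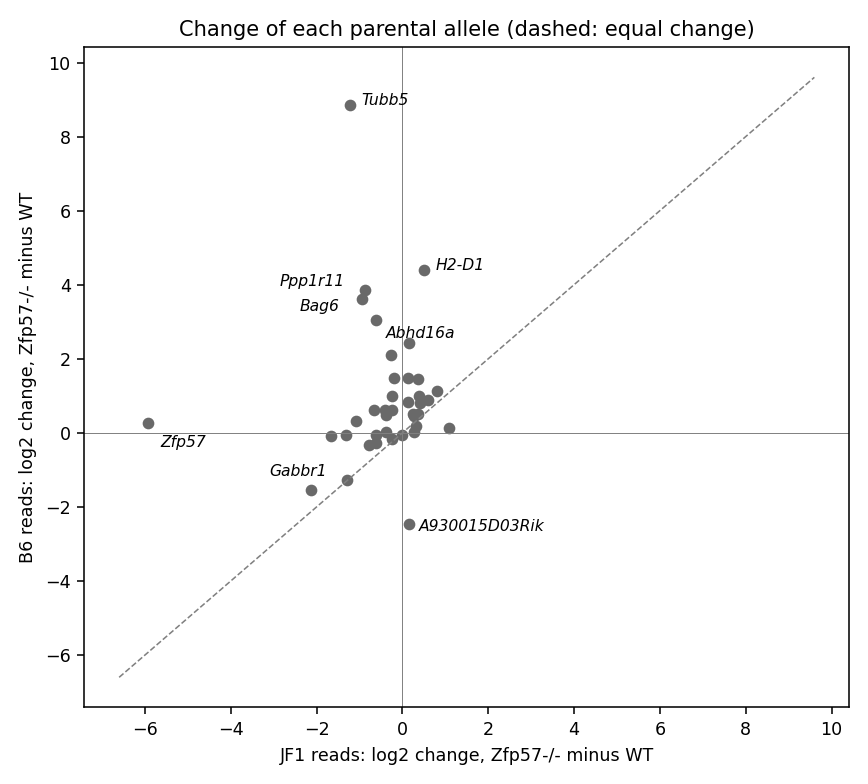
Log2 change between *Zfp57*-/- and WT libraries of JF1 reads (horizontal) and B6 reads (vertical) for the 39 informative genes, on CPM with a prior count of 2. Each point is a gene, and points on the dashed line changed alike on both alleles. *Zfp57* lies far left at -5.92, *Tubb5* at the top at 8.85, and *Gabbr1* on the line. The values of *Zfp57* and *Tubb5* depend on the prior count, as an allele had few or no reads in a genotype.

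Other genes differed in their parental shares in other ways. *H2-D1*, a classical class I heavy chain, had 14 JF1 and 1 B6 reads and 14 and 2 in the WT replicates, against 20 and 70, and 23 and 74, in the null replicates. The share of *H2-D1* was thus 0.933 and 0.875 in WT, on 15 and 16 reads, and 0.222 and 0.237 in null libraries, and the 95% Wilson intervals of the former began at 0.702 and 0.640 while those of the latter ended at 0.318 and 0.331. Its JF1 reads differed by 0.50 and its B6 reads by 4.40 on the log2 scale, while 20.5% and 27.6% of its bulk counts were assigned to a parent in WT and 44.6% and 38.6% in null libraries. *Nrm*, which encodes the nuclear envelope protein nurim, had shares of 0.602 and 0.550 in WT and 0.308 and 0.289 in null libraries, with a log2 change of -1.66 for JF1 and -0.07 for B6 reads. *A930015D03Rik*, which overlaps *H2-T23* on the other strand, went the other way, with 0.517 and 0.636 in WT and 24 of 24 and 18 of 20 reads from JF1 in the null libraries. For *Gabbr1*, the log2 change was -1.29 on the JF1 and -1.28 on the B6 allele, and the share stayed between 0.464 and 0.602 in all 4 libraries.

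Some of the 84 genes had no allelic read, or no JF1 read, in any library. *Vars*, a valyl-tRNA synthetase gene with 1057 to 1643 bulk counts per library, had no allelic read in any library, and nor had *Gm20541*. *H2-Q4*, *Gm8909*, *Gm10499*, *Gm8741*, *Gm20478* and *Ubd* had 10 to 100 B6 reads in all and no JF1 read in any library. *Ubd* and *Gm20478* had no allelic read at all in the WT libraries, and *Gm10499* had 1, from B6. For these genes the missing JF1 reads say little about WT cells. JF1 reads were kept only with at most 3 mismatches to the masked B6 genome and where they aligned once, and the part of these steps in such values was not tested.

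In the bulk comparison, 13 of the 84 genes rose and 8 fell in *Zfp57*-/- cells, that is 21 genes, beside 27.6% of all genes tested (13% rose and 14.6% fell). Their log2 fold change had a median of 0.24 over the 84 genes and -0.01 over all genes. With normalized counts, the groups did not overlap for 49 of the 84 genes, beside 66.3% of all genes. Some genes that rose, among them *Pou5f1*, *Ubd*, *Ly6g6e*, *Gm10499* and *Gm20478*, passed the count filter only through the null libraries. *Gm7335* and *Gm23864*, which fell, passed it only through the WT libraries. The counts of the 84 genes are read no further for this reason, and since the interval was placed with results of these libraries known.

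The largest change was that of *Pou5f1*, the gene of the pluripotency factor OCT4, whose start lies at -1495 kb from that of *Zfp57*. It had 1 and 6 counts in the WT and 2747 and 2286 in the null replicates, and rose by 9.41 on the log2 scale (standard error 0.40, edgeR adjusted p = 1.71e-06). The rise went with that of the other pluripotency markers given above. *Mrps18b*, a protein of the mitochondrial ribosome, had 121 and 212 counts in WT and 439 and 424 in null replicates (log2 fold change 1.36, adjusted p = 0.00191). *Dhx16*, an RNA helicase of the spliceosome, rose from 589.6 ± 117 to 1014 ± 10.9 normalized counts (log2 fold change 0.78, edgeR adjusted p = 0.0189). *Dhx16* no longer passed without either null replicate (adjusted p = 0.147 and 0.155).

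Among genes that fell, *Gabbr1* had 740 and 978 counts in WT and 388 and 302 in null replicates (log2 fold change -1.35, standard error 0.21, edgeR adjusted p = 0.00128). *Atat1*, the acetyltransferase of alpha-tubulin, had 320 and 498 against 159 and 158 (log2 fold change -1.39, adjusted p = 0.00125). *Ddr1*, a collagen receptor kinase, had 1442 and 1696 against 754 and 802 (log2 fold change -1.06, adjusted p = 0.00248). In each of these 3 genes the null counts were lower than any WT count. *Nrm* and *Prrc2a* fell by 1.02 and 0.60 (adjusted p = 0.0263 and 0.0386). *Ddr1*, *Nrm* and *Prrc2a* did not pass without either null replicate, with adjusted p between 0.0598 and 0.491. The gene model *Gm7335* had 9 and 26 counts in WT and 0 in the null replicates, at least 5.72-fold lower by a floor of 3 counts per library. The small RNA model *Gm23864* had 18 and 4 against 1 and 0, a ratio of 22.7 with an exact counting interval of 3.66 to 935. *Gm23864* did not pass with upper-quartile scaling, with DESeq2 or without *Zfp57*-/- replicate 2 (adjusted p = 0.0539, 0.0758 and 0.169).

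**Figure D3:**
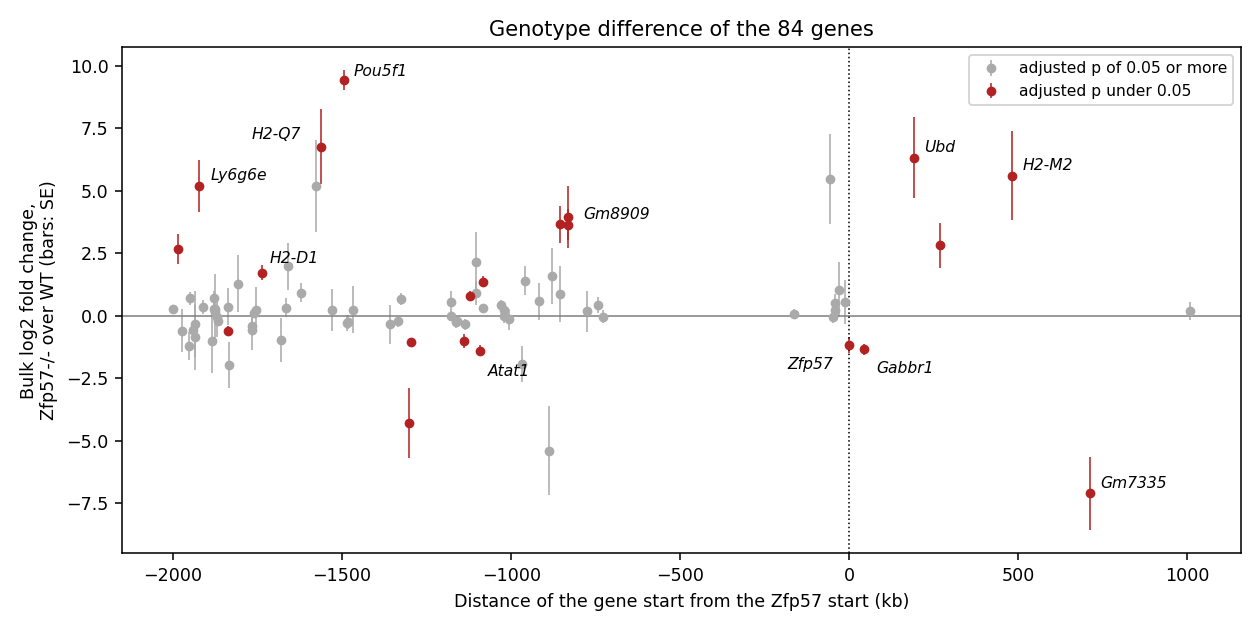
Bulk log2 fold change of *Zfp57*-/- over WT cells (vertical, bars are standard errors) against the distance of each gene start from the *Zfp57* start in kb (horizontal) for the 84 genes. Red points passed an adjusted p of 0.05. Where a genotype had 0 counts, as for *H2-Q7*, *Ubd*, *H2-M2* and *Gm7335*, the plotted value depends on the prior count of the fit. Genes that rose and fell lie side by side along the interval.

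MHC class I genes were low in both genotypes. Of the 16 measured class I genes of the interval, 4 rose in the *Zfp57*-/- cells by edgeR's test, beside 13% of all genes. Of these 4, *H2-Q7*, *H2-M2* and *H2-M3* passed the filter of more than 8 counts only through the null libraries. The filter thus favoured a rise, and nothing is read from the number that rose. Of 44 class I genes listed, 29 were found in the interval, and 13 of these had 8 counts or fewer. None of the 16 fell at the adjusted threshold, where 2 had an unadjusted p under 0.05 in that direction, and DESeq2 also gave 0. DESeq2 gave 2 that rose, and it gave no adjusted p for 2 of the 16. Together the class I genes had 191 and 170 counts in the WT and 416 and 465 in the null replicates, or 23.7 and 16.2 against 44.7 and 47.5 CPM. *H2-D1* made up 38.2% and 34.1% of these in WT and 48.6% and 54.0% in null libraries. The blood cell markers *Ptprc*, *Tyrobp*, *Spi1*, *Aif1* and *Cd74* had 2 and 4 counts in all in the WT and 13 and 10 in the null replicates, and *Tyrobp* was at 0 in all 4 libraries. The endothelial markers *Kdr*, *Pecam1*, *Cdh5* and *Tek* had 89.9 and 111 against 109 and 130 CPM, where *Pecam1* and *Tek* rose and *Kdr* fell (edgeR adjusted p = 0.0276, 0.0286 and 0.0232). Their part in the class I counts was not tested.

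The class I promoters are shown for *H2-D1*, *H2-Q7* and *H2-M3*, which rose, and for *Gm8909*, a gene model among the H2-T genes that rose with them. They run from 250 bases before to 50 bases after the gene start and come from RefSeq (GRCm38.p6), each given 5′ to 3′ on the strand of the gene. *H2-D1* lies at chr17:35262844-35263143 (plus strand), *H2-Q7* at chr17:35438905-35439204 (plus), *H2-M3* at chr17:37269984-37270283 (plus) and *Gm8909* at chr17:36168488-36168787 (minus). Capitals mark matches on either strand to ATTGG, the inverted CCAAT box, and to TGACGC, a CRE-like core, which are elements known from class I promoters.
H2-D1: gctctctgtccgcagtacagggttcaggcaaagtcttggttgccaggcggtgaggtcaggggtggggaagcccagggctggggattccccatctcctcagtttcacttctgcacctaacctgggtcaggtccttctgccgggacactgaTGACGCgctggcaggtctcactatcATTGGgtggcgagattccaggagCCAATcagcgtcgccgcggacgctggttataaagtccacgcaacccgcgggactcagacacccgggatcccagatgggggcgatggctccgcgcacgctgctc
H2-Q7: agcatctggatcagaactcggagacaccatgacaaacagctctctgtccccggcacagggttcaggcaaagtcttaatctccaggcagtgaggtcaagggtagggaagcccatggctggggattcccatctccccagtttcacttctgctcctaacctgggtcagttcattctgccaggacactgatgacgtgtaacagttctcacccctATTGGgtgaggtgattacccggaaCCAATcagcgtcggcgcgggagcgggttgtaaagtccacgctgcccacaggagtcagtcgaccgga
H2-M3: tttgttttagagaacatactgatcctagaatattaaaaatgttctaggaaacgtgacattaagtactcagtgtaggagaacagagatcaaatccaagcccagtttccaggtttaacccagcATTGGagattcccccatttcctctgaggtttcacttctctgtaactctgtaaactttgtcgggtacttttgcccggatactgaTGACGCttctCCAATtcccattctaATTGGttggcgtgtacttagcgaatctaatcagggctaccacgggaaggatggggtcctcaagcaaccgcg
Gm8909: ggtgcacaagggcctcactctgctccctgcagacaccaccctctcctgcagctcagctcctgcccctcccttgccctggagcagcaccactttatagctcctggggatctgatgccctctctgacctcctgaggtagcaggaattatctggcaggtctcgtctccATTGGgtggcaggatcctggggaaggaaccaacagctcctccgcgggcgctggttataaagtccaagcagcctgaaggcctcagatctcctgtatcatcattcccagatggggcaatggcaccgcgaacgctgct
The *H2-D1* window held TGACGC at -101 and the box at -76 and -53, counted from the start by the first base of each match. *H2-Q7* had the box at -40 and -16, and *Gm8909* at -85, and neither held the exact letters TGACGC. After gacactga, where *H2-D1* has TGACGC, the *H2-Q7* window reads tgacgt, and such near matches were not counted for any window. *H2-M3* had TGACGC at -46 and the box at -129, -36 and -21. Of the 12 class I genes of the interval with a promoter in the table, 10 held ATTGG and 3 TGACGC. Among all 32817 promoter windows 37.4% and 7.39% did, and among the 86 windows of the 84 genes 43.0% and 12.8%. The TGACGC of *H2-Q4*, counted among these, lay after the start, at 31. *H2-M2*, which also rose and is not shown, had the box at -84 and no TGACGC. A match describes letters in the window, and no binding was measured.

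*H2-D1* had 73 and 58 counts in the WT and 202 and 251 in the *Zfp57*-/- replicates. Both null values lay above both WT values, at 223 ± 26.4 against 68.6 ± 23.3 normalized counts (SD, n = 2). The gene rose by 1.71 on the log2 scale, with a standard error of 0.30 and an edgeR adjusted p of 0.00256. Reads for the bulk counts were also kept only with at most 3 mismatches to the reference genome. Allelic reads of *H2-D1* were mostly JF1 in WT and mostly B6 in null libraries. The part of the mismatch limit in the bulk rises of *H2-D1*, *Gm8909* and *Gm10499* was not tested. In CPM per kb of gene model, *H2-D1* was at 2.83 in WT and 9.18 in null cells, the highest of the 16 class I genes of the interval in each genotype. *H2-Q4* came next in WT at 1.44 and stood at 2.72 in null cells, with 28 and 42 against 67 and 68 counts, and did not pass the threshold (adjusted p = 0.104).

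The other class I genes that passed rest on few counts. *H2-Q7*, a Qa-2 antigen gene, had 0 counts in both WT replicates and 16 and 11 in the null replicates, at least 4.32-fold higher by the same floor. *H2-M2* had 0 against 4 and 8 counts, at least 1.90-fold higher. *H2-M3*, which presents N-formylated peptides, had 1 and 3 against 19 and 11 counts (log2 fold change 2.82, standard error 0.90, adjusted p = 0.0418). With DESeq2, *H2-M2* and *H2-M3* did not pass (adjusted p = 0.133 and 0.104). Nor did *H2-M2* without WT replicate 2 (0.0561), or *H2-M3* without either null replicate (0.276 and 0.0716).

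The 12 class I genes that did not pass had log2 fold changes from -5.39 to 5.19, where both ends belong to genes at 0 in a genotype. *H2-T23*, which encodes Qa-1, had 24 and 20 counts in WT and 4 and 8 in null replicates (log2 fold change -1.93, adjusted p = 0.0665), the opposite direction to *H2-D1*. *H2-T22*, recognized by gamma delta T cells, had 22 and 10 against 48 and 43 (log2 fold change 1.40, adjusted p = 0.101). *H2-T-ps*, a pseudogene, had 5 and 5 against 0 and 0. *H2-Q6* had 0 and 0 against 4 and 5, at least 1.43-fold higher.

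Among gene models between the H2-T genes, *Gm8909* had 6 and 3 counts in WT and 63 and 58 in null replicates (log2 fold change 3.64, standard error 0.61, edgeR adjusted p = 0.00185). *Gm10499* had 3 and 2 against 43 and 25 (log2 fold change 3.65, adjusted p = 0.00591), and 0.0587 without *Zfp57*-/- replicate 1. *Gm20478*, which starts next to *Gm8909* on the other strand, had 1 and 0 against 11 and 9. In null cells *Gm8909* reached 4.11 CPM per kb, above the class I genes of the interval other than *H2-D1*.

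Class I sequences are alike, and a read that aligned to more than 1 place was not counted. Of the windows of 100 bases in their transcripts (GENCODE vM21), 3.59% recurred in another gene for *H2-D1*, 12.0% for *H2-Q7*, 10.8% for *H2-Q6*, 8.86% for *H2-T22*, 2.16% for *Gm8909* and 1.02% for *Gm10499*. None recurred for *H2-M2*, *H2-M3*, *H2-M5* or *Zfp57*. Counts of genes with recurring windows are uncertain. The percentages cover exact matches between reference transcripts only and do not bound this uncertainty, as JF1 sequences were not compared.

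**Figure D4:**
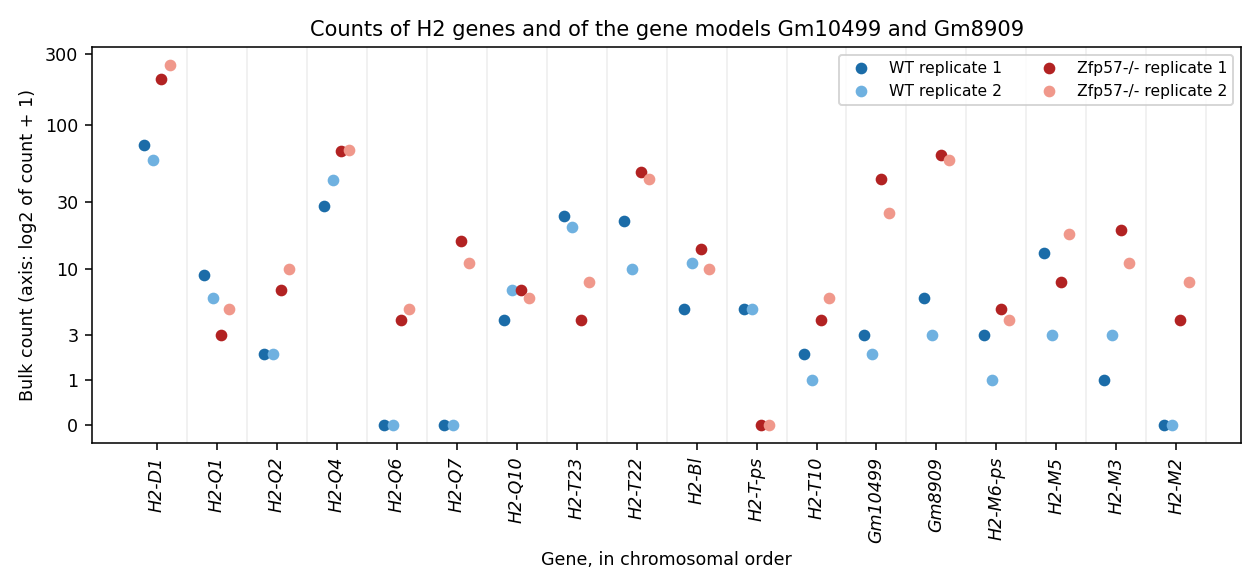
Bulk counts (vertical, spaced as log2 of count + 1) of the 16 class I genes and of *Gm10499* and *Gm8909* in the 4 libraries, in chromosomal order. Each point is a library. The null replicates of *H2-D1*, *Gm8909* and *H2-Q7* lie above both WT replicates, and those of *H2-T23* below.

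Genes that serve class I presentation but lie outside the interval were measured in the same fit. Of 30 such genes, all measured, 3 rose and 1 fell, beside 13% and 14.6% of all genes. *H2-K1* had 125 and 167 counts in WT and 266 and 246 in null replicates (log2 fold change 0.77, standard error 0.23, edgeR adjusted p = 0.0304). *Irf1*, an interferon-induced transcription factor, had 51 and 61 against 215 and 226 (log2 fold change 1.93, adjusted p = 0.000556). *Psmb8*, an immunoproteasome subunit, had 3 and 2 against 22 and 20 (log2 fold change 2.95, adjusted p = 0.0200). *Psmb8* passed the count filter only through the null libraries, which favoured a rise. *Jak2*, a cytokine receptor kinase, fell by 0.79 (adjusted p = 0.0165). *H2-K1*, *Psmb8* and *Jak2* did not pass without either null replicate, with adjusted p between 0.0721 and 0.338, and *H2-K1* did not pass with DESeq2 (0.0591).

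*B2m* had 277 and 593 counts in WT and 545 and 728 in null replicates. Both null values were above both WT values after scaling, and the gene did not pass (log2 fold change 0.54, adjusted p = 0.147). *Tap1*, a subunit of the peptide transporter, had 136 and 148 against 200 and 187 (log2 fold change 0.39, adjusted p = 0.260). *Nlrc5*, the transactivator of class I genes, had 8 and 4 against 18 and 13 (adjusted p = 0.248).

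In the class III region, 20 of the 28 listed genes found there were measured, 2 rose and 1, *Prrc2a*, fell, beside 13% and 14.6% of all genes. *Ly6g6e*, a gene of the Ly6 surface protein family, had 0 and 1 counts in WT and 25 and 21 in null replicates, a ratio of 44.7 with an exact counting interval of 7.63 to 1803. *Vwa7* had 3 and 14 against 50 and 59 (log2 fold change 2.67, standard error 0.62, edgeR adjusted p = 0.0105). The cytokine genes *Tnf* and *Lta* had 0 to 2 counts in any library, and *Ltb* 1 to 4. *Ddx39b*, an RNA helicase of mRNA export, had 1592 and 2703 against 2579 and 2158, values that overlapped between genotypes.

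Between *Pou5f1* and *Rpp21*, 21 of 23 listed genes were measured, 3 rose (*Pou5f1*, *Mrps18b* and *Dhx16*) and 3 fell (*Ddr1*, *Nrm* and *Atat1*), beside 13% and 14.6% of all genes. *Mucl3* varied widely between replicates, with 28 counts in WT replicate 1 and 312 in WT replicate 2, against 105 and 149 in the null replicates. *Flot1*, which encodes the membrane raft protein flotillin, was at 296.9 ± 21.0 and 296.2 ± 0.215 normalized counts in WT and null cells. Of the TRIM ubiquitin ligases of the interval, *Trim26* and *Trim39* were measured, with log2 fold changes of 0.06 and -0.03.

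Around *Zfp57*, *Ubd*, which encodes the ubiquitin-like protein FAT10, had 0 counts in both WT and 7 and 13 in the null replicates, at least 3.16-fold higher. *Rnf39* had 0 and 0 against 7 and 4, and did not pass (adjusted p = 0.0517). *Ppp1r11*, *Znrd1* and *Znrd1as* had adjusted p of 0.930, 0.566 and 0.332. *Mog*, a myelin gene, had no count in any library, and none of the 58 olfactory receptor genes of the interval had more than 8 counts.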

How the data were processed

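WT and *Zfp57*-/- JB1 cells at day 12 were each measured in 2 libraries. Per the labels and methods, the authors used Trimmomatic 0.36 for trimming and STAR 2.5.4a for alignment of the stranded read pairs to GRCm38, kept reads that aligned once, and deposited raw counts of fragments per gene (featureCounts of Subread 1.6.0, GENCODE vM20, strand used). For the allele table they aligned reads to a genome masked at SNPs and split them with SNPsplit.

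Bulk counts (7663520 to 10337082 per library) were compared with edgeR 4.0.16 in R 4.3.3 (TMM, robust quasi-likelihood test, genes with more than 8 counts, Benjamini-Hochberg adjusted p under 0.05). Allelic counts (2837013 to 3826604) were described without a test in Python 3.11.15. In simulated data for this comparison with 200 changed genes among 19565, edgeR recovered 99.5% with 9 false calls. The changed genes were drawn only from genes with higher mean counts, with large fold changes and a common dispersion for all genes. The recovery therefore does not cover genes with few counts or smaller changes. Alternatives were DESeq2 1.42.0, other scalings and filters, a replicate block, other read minimums and share limits, and each library left out. Genes were named if they were *Zfp57*, class I or presentation genes past the threshold, the 10 smallest adjusted p per direction, or neighbours of the run. Other genes were named after their values were seen. The members and lists were chosen with earlier results of these data known. Gene symbols were matched by ID, and all but 881 IDs of the table matched. P-values set the genotype difference against the spread between these libraries, estimated with information from all genes. They do not cover variation between lines.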

Additional observations from a re-analysis of the deposited data

How the results depend on the processing

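Around *Zfp57*, the run of informative genes without JF1 reads was 1 gene long. This held under every read minimum, share limit, pooled share and left-out library tried. The 4 genes with nearly only JF1 reads in WT cells became 6 with a limit of 0.8, 2 with a limit of 0.95 and 4 to 5 with a library left out, alternatives chosen after seeing the data. DESeq2 gave 2 class I genes that rose in place of 4. Without a filter on low counts, 2 presentation genes outside the interval fell in place of 1.

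Only 2 replicate numbers are shared, and the labels do not say that they mark a common batch. The differences of replicate 1 and 2 correlated between the genotypes at 0.145 over 11736 genes. With the replicate block, all genes called rose from 5522 to 6984, class I genes that fell went from 0 to 1, and presentation genes went from 3 to 10 higher and from 1 to 2 lower.

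When 1 library at a time was left out, the genes of the interval that passed ranged from 8 to 25 higher and 3 to 14 lower, class I genes from 2 to 5 higher and 0 to 1 lower, and presentation genes from 1 to 9 higher and 0 to 3 lower. Over all genes, 8051 and 9947 passed without WT replicate 1 and 2, and 2831 and 2985 without *Zfp57*-/- replicate 1 and 2. *Zfp57* had log2 fold changes from -1.62 to -0.61, the median JF1 share between 0.599 and 0.663 in WT and 0.475 and 0.484 in null cells, the median log2 change of JF1 reads between -0.318 and -0.0655, and the median bulk log2 change between -0.0737 and 0.142. The lone library was assumed to vary like the other genotype. The cause of these shifts was not tested. Of 23 other named genes, 12 kept their call under each alternative that gave them a value and 11 lost it in at least 1, and no direction reversed. *Ubd*, *Gm23864* and *H2-M2* had no value in some fits because a filter removed them. With 2 libraries per genotype, differences under the counting error of a few reads were not detectable. Larger differences could also miss the threshold. *H2-T23*, with 24 and 20 counts in WT and 4 and 8 in null replicates, had an edgeR adjusted p of 0.0665.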
